A study of Mus musculus with 12 samples.

Results

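The genes described here are the 7 that encode the classical MHC class II chains, their loading machinery and their transactivator, Ciita, Cd74, H2-Aa, H2-Ab1, H2-Eb1, H2-DMa and H2-DMb1. They were chosen by name, by matching their Ensembl identifiers in the count table, and make up 7 of its 54232 genes. RNA was sequenced from B16F10 cells, a C57BL/6 mouse melanoma line, in 12 libraries that form 4 groups of 3. The study asked how melanoma cells that survive immunotherapy differ from untreated ones.

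The WT libraries are untreated B16F10 cells in culture. The relapsed lines (ITF1, ITM and Rel) were sorted from tumors that came back after treatment with anti-CD40, TNFα and anti-TRP1, which binds a melanoma antigen, and were then grown in culture. Tumor 1, 3 and 4 were sorted from relapsed tumors of the same treatment and their RNA was extracted at once. Lyso is B16F10 incubated with granules that CD8+ spleen T cells, activated with anti-CD3, anti-CD28 and IL-2, had released into the medium. The sources differ on the time of this incubation, which is 48 hours by the labels and 4 hours by the study's methods. The labels put C57BL/6 and an age of 6 weeks on every library, and no group carries an engineered allele. Each relapsed line is a line of its own, the Tumor cells are as pure as their sort, and the granule medium was concentrated from a T-cell culture. No separate cultures are stated for the WT and Lyso libraries, so that their p-values measure the spread between libraries, which may be technical.

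MHC class II molecules are pairs of an alpha and a beta chain that carry peptides from endosomes to the cell surface, where CD4+ T cells read them. Dendritic cells, macrophages and B cells make them at rest, and many other cells, melanoma cells among them, do so after exposure to interferon gamma. Ciita does not bind DNA itself. It docks onto the RFX, CREB and NF-Y proteins that sit on the X and Y boxes of class II promoters, and its own amount is the switch of the pathway. In cells without resting class II, Irf1 acts on the Ciita gene. The C57BL/6 strain lacks an expressed H2-E alpha chain, so that the beta chain of H2-Eb1 has no usual partner.

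The promoters are shown because their X and Y boxes are the sites through which Ciita acts. RefSeq promoter sequences (GRCm38.p6) matched 4 of the 7 genes, namely H2-Aa, H2-Eb1, H2-DMb1 and H2-DMa, and the stretch from 150 to 21 bases before the start site of the first 3 is given 5′ to 3′ on the strand of the gene. Capitals mark ATTGG or its complement CCAAT (core of the Y box), GCAAC (part of the RFX site in the X box), TGACGTCA (a cAMP response element) and AACTGATGATGCT, the longest run that these windows of H2-Eb1 and H2-DMb1 share, looked for after the sequences were seen.
H2-Aa, chr17:34287844-34287973 (minus strand): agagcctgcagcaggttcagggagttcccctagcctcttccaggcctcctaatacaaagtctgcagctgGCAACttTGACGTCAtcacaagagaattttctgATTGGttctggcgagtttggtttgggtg
H2-Eb1, chr17:34305717-34305846 (plus strand): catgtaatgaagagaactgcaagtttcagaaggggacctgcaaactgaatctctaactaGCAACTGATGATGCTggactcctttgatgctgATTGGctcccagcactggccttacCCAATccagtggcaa
H2-DMb1, chr17:34153041-34153170 (plus strand): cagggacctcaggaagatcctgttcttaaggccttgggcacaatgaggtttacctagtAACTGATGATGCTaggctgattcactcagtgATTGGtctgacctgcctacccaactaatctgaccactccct

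In H2-Aa, GCAAC began 81 bases and ATTGG 48 bases before the start site, a distance of 33. In H2-Eb1 the same pair stood at 91 and 59 bases, a distance of 32, and in H2-DMb1 the shared run began 31 bases before ATTGG. In H2-Eb1 the shared run overlaps GCAAC. The short letters are common. Over 32851 promoters and 250 bases before the start, on either strand, ATTGG was in 33.85% and GCAAC in 29.88%. TGACGTCA was in 1.546%. AACTGATGATGCT was in 2, the H2-Eb1 and H2-DMb1 promoters that it was taken from. In the windows of the 2 start sites listed for H2-DMa, ATTGG lay 198 bases before one and GTTGC, the complement of GCAAC, 7 bases before the other. These are matches of letters, not measured binding.

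Reads were deposited as raw counts per gene. Counts on genes ran from 1667398 to 16402629 per library. WT 1 and WT 2 held 1667398 and 2350129, the Tumor libraries 3102442 to 5049496, and WT 3, Lyso and the relapsed lines 10895611 to 16402629. Levels are given in CPM, that is, counts over the library size after TMM scaling, times 1e6. Counts of 3 or fewer were taken as not detectable, a floor of 1.70 CPM in WT 1, 1.27 in WT 2, 0.604 to 0.975 in Tumor and at most 0.283 in the other 7 libraries, for counting error only. Low levels could therefore be seen in WT 3, Lyso and the relapsed lines that would be missed in WT 1 or WT 2. Differences are log2 fold changes with their SE from edgeR's quasi-likelihood test on all 12 libraries and 14924 genes. A gene was called when its p, adjusted by Benjamini-Hochberg, was under 0.05 and its log2 fold change was over 1 in size. All 7 genes passed the expression filter, which a gene that is high in 1 group alone can pass.

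The melanocyte genes by which B16F10 is known were high in every library, with a sum over 8 genes of 19240 to 36000 CPM. The Tumor libraries also held RNA of other cell types. The sum of 8 fibroblast genes was 7414 to 10400 CPM in Tumor and 12.3 to 24.9 in the 9 cultured libraries, and C1qa and C1qb of macrophages were counted in all Tumor libraries and in none of the others. In bulk RNA, fewer cells of a type and less RNA per cell cannot be told apart.

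Ciita, the transactivator, was highest in Lyso (chromosome 16, 10480059 to 10528418, GRCm38). Its counts were 246, 250 and 312 in the Lyso libraries, or 23.2, 23.3 and 25.3 CPM. In WT they were 0, 0 and 1. In ITF1, ITM and Rel they were 4, 1 and 0. The Lyso libraries lay close together and far above all WT libraries and relapsed lines. In Tumor 1, 3 and 4 the counts were 0, 11 and 45, or 0, 2.21 and 10.6 CPM. Ciita was thus not detectable in Tumor 1, whose floor was 0.975 CPM, and the other 2 lay between WT and Lyso. Over the group, the pooled counts of Lyso gave a ratio of 506 to those of WT, with a 95% exact counting interval of 90.5 to 20010, since WT held 1 count in all. The same ratio for Tumor was 96.1 (16.6 to 3862).

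By the edgeR test, Ciita rose in Lyso against WT by 8.63 ± 1.23 (log2 fold change ± SE, adjusted p = 0.00146) and against the relapsed lines by 7.57 ± 0.89 (adjusted p = 0.000282). It also rose in Tumor against WT, by 6.21 ± 1.47 (adjusted p = 0.0104), although the libraries overlapped through Tumor 1. It was lower in Tumor than in Lyso, with a log2 fold change of -2.43 ± 0.64 (adjusted p = 0.0150), and no Tumor library reached a Lyso library. This last call was lost with DESeq2 (adjusted p = 0.245), with edgeR's glmTreat, which tests against the fold limit (adjusted p = 0.111), and without Tumor 3 (adjusted p = 0.0780). The order of the group means was Lyso (23.9 ± 1.17 CPM, SD, n = 3), Tumor (4.27 ± 5.59), relapsed lines (0.122 ± 0.163) and WT (0.0197 ± 0.0341), and the last 2 did not differ beyond their spread. Part of Ciita, 3.45% of its exonic bases, lies opposite the gene Dexi, and the strand setting of the counts is not given in the sources used here.

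The alpha and beta chains of the surface molecule had another order, with Tumor first. H2-Aa encodes the alpha chain of the I-A molecule (chromosome 17, 34282744 to 34287823). It stood at 4.23, 13.1 and 73.4 CPM in Tumor 1, 3 and 4. In the Lyso libraries it was 2.26, 2.24 and 0.972 CPM. In WT it was 0, 1.27 and 0 CPM, and in ITF1, ITM and Rel 0.0768, 0.180 and 0.268 CPM. All Tumor libraries were above all Lyso libraries, as for 28% of all genes tested, while Lyso overlapped WT through the 3 counts of WT 2. The deep library WT 3 held no count of H2-Aa, against 12 or more in each Lyso library of lesser depth.

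H2-Ab1, the beta chain that pairs with H2-Aa (chromosome 17, 34257689 to 34269419), was 4.23, 14.5 and 51.3 CPM in Tumor 1, 3 and 4. It was 2.26, 2.701 and 1.62 CPM in Lyso. It was 0, 0 and 0.295 CPM in WT and 0.230, 0.180 and 1.07 CPM in ITF1, ITM and Rel. Every Lyso library was above every cultured library of the other groups and below every Tumor library. Of all genes tested, 15.8% had Lyso above WT, 15.3% had Lyso above the relapsed lines and 28% had Tumor above Lyso in this way. H2-Eb1, the beta chain of I-E (chromosome 17, 34305867 to 34316674), was 0.975, 9.06 and 41.9 CPM in Tumor 1, 3 and 4, the first of these from 3 counts. It was 1.23, 1.86 and 1.62 CPM in Lyso, 0, 0.844 and 0.118 CPM in WT, and at most 0.300 CPM in the relapsed lines. Here Tumor 1 lay below the Lyso libraries.

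Cd74, the invariant chain that guides new class II molecules to the endosome (chromosome 18, 60803848 to 60812652), followed the chains. Its level was 12.7, 29.99 and 159.1 CPM in Tumor 1, 3 and 4. It was 7.83, 7.92 and 3.97 CPM in Lyso. It was 1.13, 1.69 and 1.002 CPM in WT and 0.614, 0.419 and 1.67 CPM in ITF1, ITM and Rel. The Tumor libraries were all above Lyso, as 28% of all genes tested were. Lyso was all above WT (15.8% of all genes tested) and the relapsed lines (15.3%). Per kilobase of exon, Cd74 was the most abundant of the 7 genes in Tumor, with 40.1 ± 47.7 CPM per kb (SD, n = 3) against 7.97 to 9.09 for the mean of each of the 3 chains.

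H2-DMa and H2-DMb1 encode the chains of H2-DM, which exchanges peptides on class II molecules in the endosome. H2-DMa (chromosome 17, 34119541 to 34139101) was 1.95, 5.03 and 20.5 CPM in Tumor 1, 3 and 4 and 3.77, 3.35 and 2.67 CPM in Lyso. In WT it was 0, 0.844 and 1.77 CPM, and in ITF1, ITM and Rel 1.54, 0.599 and 0.937 CPM. Lyso was above both other cultured groups and overlapped Tumor. Of the 75-base stretches of its transcripts, 7.46% also occur in Brd2, its neighbor on the opposite strand.

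H2-DMb1 (chromosome 17, 34153072 to 34160230) had a pattern of its own among the 7 genes. It was detected in every library, at 3.96, 1.69 and 3.83 CPM in WT and 4.24, 4.38 and 4.45 CPM in Lyso. In ITF1, ITM and Rel it was 8.91, 7.25 and 23.7 CPM, and in Tumor 1, 3 and 4 it was 4.23, 12.3 and 37.4 CPM. The relapsed lines were all above WT, as 6.43% of all genes tested were, and all above Lyso, as 14.6% were. They lay within the range of Tumor, while their 3 chain genes were at 1.07 CPM or less. Of its 75-base stretches, 15.8% also occur in the sister gene H2-DMb2, so that its counts are uncertain.

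**Figure D1:**
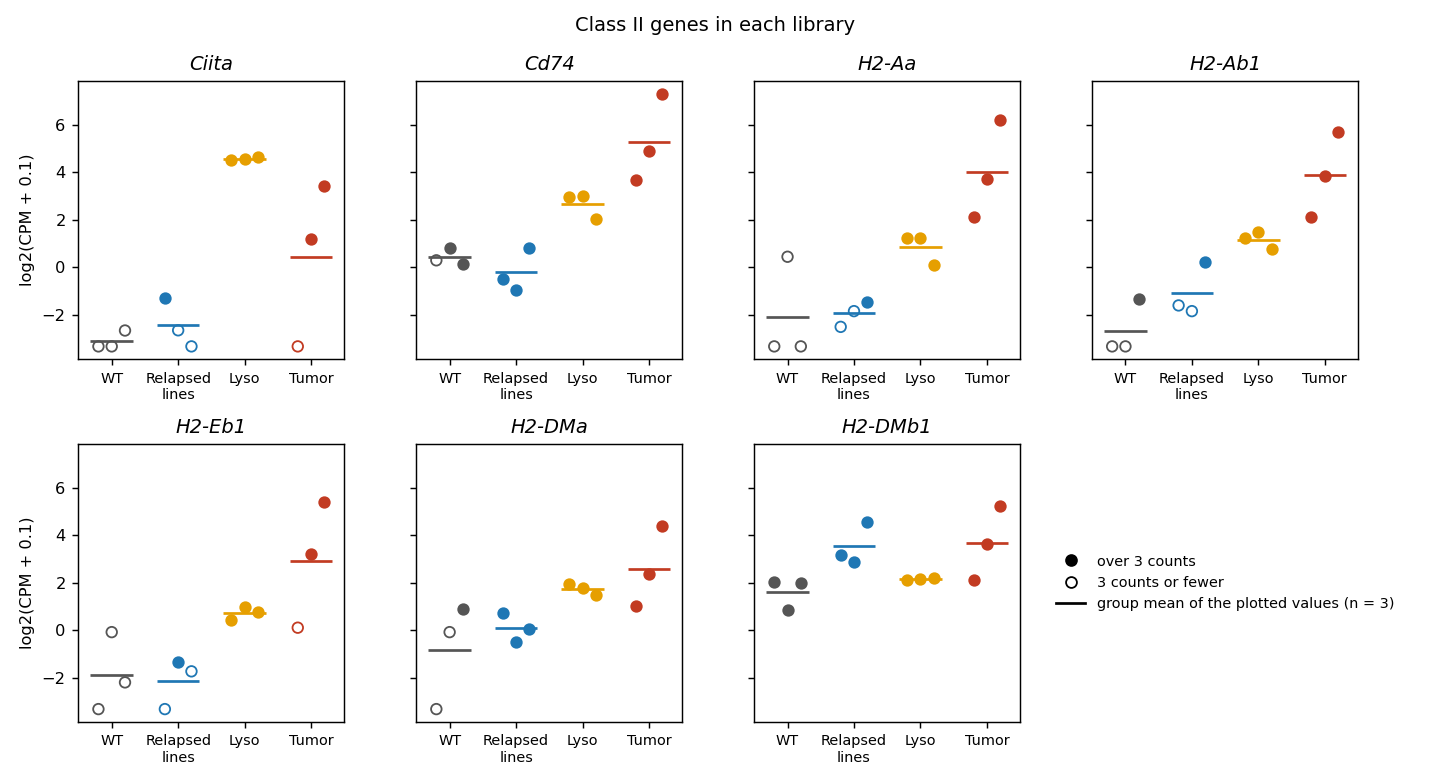
The level of each of the 7 class II genes in every library, as log2(CPM + 0.1). Each point is 1 library, open points have 3 counts or fewer, and bars are group means of the plotted values (n = 3). Ciita is highest in Lyso, at 23.2 to 25.3 CPM, and the chains and Cd74 are highest and most scattered in Tumor. H2-DMb1 alone of the 7 has every relapsed line above every WT library, as 6.43% of all genes tested do.

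In Tumor against WT, 7 of the 7 genes rose, where 8.56% of all genes tested were called higher. The log2 fold change was 7.47 ± 1.39 for H2-Aa (adjusted p = 0.00243), 6.62 ± 1.11 for H2-Ab1 (adjusted p = 0.00127) and 6.35 ± 1.32 for H2-Eb1 (adjusted p = 0.00485). Cd74 rose by 5.89 ± 0.996 (adjusted p = 0.00132). The DM genes rose as well, H2-DMa by 2.82 ± 0.78 (adjusted p = 0.0230) and H2-DMb1 by 2.43 ± 0.71 (adjusted p = 0.0300). For 6 of the 7, all but Ciita, every Tumor library lay above every WT library, as 21% of all genes did. For H2-Eb1 this rested on 3 counts in Tumor 1 against 2 in WT 2, neither above the floor. The gap was also narrow for H2-DMa (1.95 CPM in Tumor 1 against 1.77 in WT 3) and H2-DMb1 (4.23 in Tumor 1 against 3.96 in WT 1). An exact permutation test of 3 libraries against 3 cannot give a p below 0.1. Without the deep library WT 3 only Cd74, H2-Aa and H2-Ab1 remained called, 3 of 7, and without Tumor 4 the calls of H2-DMa and H2-DMb1 were lost (adjusted p = 0.154 and 0.173), as they were without WT 2 (0.0622 and 0.0866) and with glmTreat (0.122 and 0.175). The sizes moved too. When 1 library was left out, H2-Aa ran from 5.38 (without WT 3) to 11.24 (without WT 2), H2-Ab1 from 5.35 (without Tumor 4) to 10.67 (without WT 3), H2-Eb1 from 4.62 (without Tumor 4) to 7.21 (without WT 2), Cd74 from 4.22 (without Tumor 4) to 6.37 (without Tumor 1) and Ciita from 4.47 (without Tumor 4) to 8.27 (without WT 3). In a fit of these groups alone, 4 of the 7 passed the filter and 3 were called.

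In Lyso against WT, Ciita was the 1 gene of the 7 that was called, where 2.43% of all genes were called higher. Cd74 and the chains had positive values that did not pass the test, with log2 fold changes of 2.52 ± 1.05 for Cd74 (adjusted p = 0.218), 3.40 for H2-Aa (adjusted p = 0.309), 3.19 for H2-Ab1 (adjusted p = 0.1897) and 2.88 for H2-Eb1 (adjusted p = 0.342). H2-DMa was at 1.31 (adjusted p = 0.403) and H2-DMb1 at 0.37 (adjusted p = 0.845). For 6 of the 7, all but H2-Aa, every Lyso library was above every WT library, as 15.8% of all genes were. For H2-DMb1 the gap was narrow, with 4.24 CPM in Lyso 1 against 3.96 in WT 1, the latter from 7 counts. Ciita was called in each fit without 1 library, at 8.51 to 10.7. Values for H2-Aa ran from 1.32 (without WT 3) to 7.18 (without WT 2) and for H2-Ab1 from 3.01 to 7.25 (without WT 3), and neither was called. The count of calls depended on the filter and on the groups fitted, with 4 called when Lyso and WT were fitted alone (Ciita, Cd74, H2-Ab1 and H2-Eb1) and 5 when low genes were kept (these and H2-Aa). Against the relapsed lines, where 3.21% of all genes were called higher in Lyso, Ciita was again the 1 gene called, and Cd74 had a log2 fold change of 2.84 (adjusted p = 0.0650). There too the count moved, to 2 with DESeq2, 5 with these groups fitted alone and 7 without the filter, the last including H2-DMb1 as lower in Lyso.

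Leukocyte genes were also present in Lyso at the level of the class II chains. The sum of 4 B-cell genes (Cd79a, Cd79b, Ms4a1 and Pax5) was 4.62, 5.68 and 2.997 CPM in Lyso 1, 2 and 3, against 0 to 0.422 CPM in WT. H2-Aa, H2-Ab1 and H2-Eb1 together came to 5.75, 6.80 and 4.21 CPM in the same libraries. The single genes differed in their order. H2-Aa, H2-Ab1, Cd74 and H2-DMa were lowest in Lyso 3, H2-Eb1 was lowest in Lyso 1, and Ciita and H2-DMb1 were highest in Lyso 3. Of these B-cell genes, 3 were tested and 2 (Cd79b and Pax5) rose in Lyso. The 14 macrophage genes summed to 35.9 to 39.7 CPM in Lyso, 15.3 to 30.6 in WT and 14.8 to 47.5 in the relapsed lines. Most of the Lyso sum was Cd68 and Csf1r, with means of 18.8 and 12.1 CPM. Both were also present in WT, with means of 9.86 and 8.86 CPM. C1qa, C1qb, Fcgr1 and Itgam were at 0 in Lyso, and 1 of 10 tested (Ptprc) was called. The 7 T-cell genes summed to 8.50 to 9.24 CPM in Lyso and 1.27 to 6.79 in WT, and Cd8a was called among 2 tested. The WT sum was Lck alone, with Cd2, Cd3d, Cd3e, Cd3g, Cd4 and Cd8a at 0. In Lyso these 6 genes held from 4 (Cd4) to 63 (Cd8a) counts each over the group. The 8 dendritic cell genes summed to 7.35 to 8.85 CPM in Lyso and 5.09 to 6.33 in WT, with Cd209a, Flt3 and Itgax at 0 in Lyso, and Ccr7 was called among 3 tested. Zbtb46 made up most of both sums, with means of 4.92 CPM in Lyso and 5.02 CPM in WT. The part of such cells in the class II counts of Lyso was not tested.

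Set directly against each other, Tumor and Lyso differed in the balance of transactivator and chains. In this comparison 5 of the 7 genes were higher in Tumor and 1, Ciita, was lower, where 8.78% of all genes were called higher and 4.14% lower. For H2-Aa, H2-Ab1 and Cd74 every Tumor library was above every Lyso library, as 28% of all genes tested were. For Ciita every Tumor library was below, as 26.8% were. H2-Aa was higher by 4.07 (adjusted p = 0.00406), H2-Eb1 by 3.47 (adjusted p = 0.0101), H2-Ab1 by 3.43 (adjusted p = 0.00397) and Cd74 by 3.37 (adjusted p = 0.00452) on the log2 scale. H2-DMb1 was higher by 2.06 (adjusted p = 0.0285), a call that was lost when any 1 Lyso library was left out, without Tumor 4 (adjusted p = 0.245) and with glmTreat (adjusted p = 0.231). H2-DMa, at 1.51, did not pass (adjusted p = 0.103), and without Tumor 4 H2-Eb1 was lost as well (adjusted p = 0.113).

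**Figure D2:**
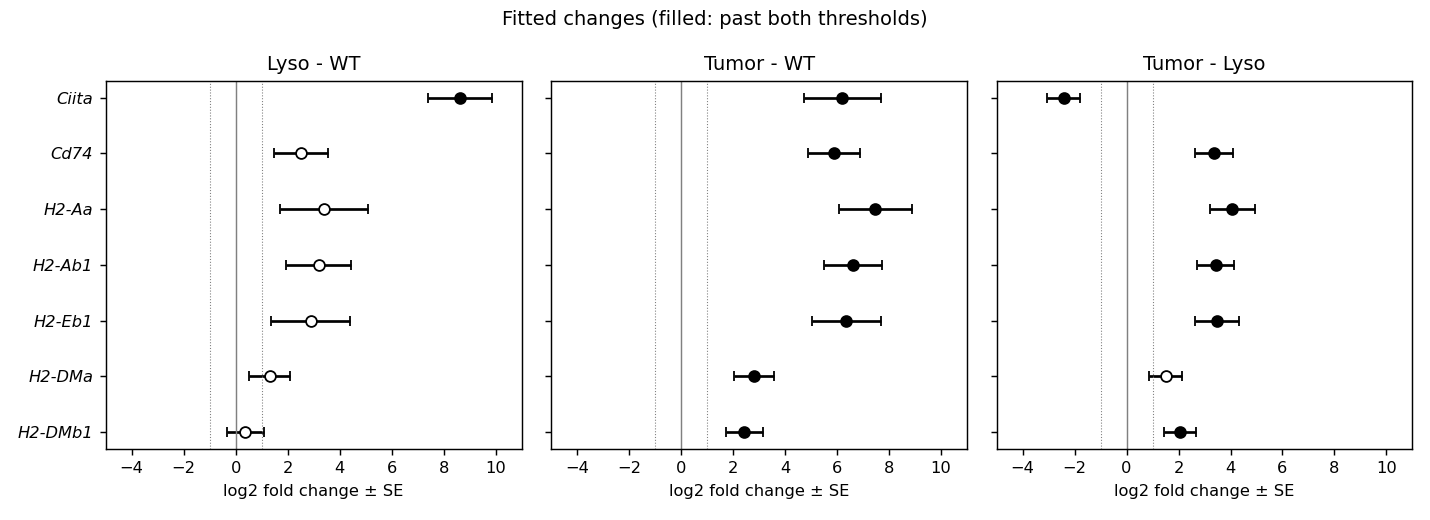
Log2 fold changes with their SE for the 7 genes in Lyso against WT, Tumor against WT and Tumor against Lyso, from edgeR on 3 libraries per group. Filled points passed an adjusted p of 0.05 and a log2 fold change of 1 (dotted lines) in size. Ciita alone is filled in Lyso against WT at 8.63, all 7 are filled in Tumor against WT, and Ciita is on the other side from the rest in Tumor against Lyso.

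The ratio of the summed chains to Ciita, a measure chosen after the values were seen, shows the same balance within each library. Per kilobase of exon, H2-Aa, H2-Ab1 and H2-Eb1 together were 0.867, 1.06 and 0.649 times Ciita in Lyso 1, 2 and 3. In Tumor 3 and Tumor 4 they were 59.2 and 54.8 times Ciita. In Tumor 1, with no Ciita count, the ratio was at least 31.9, with Ciita set at 3 counts in that library. The Lyso and Tumor libraries did not overlap, and Tumor 3 (with 11 counts of Ciita) and Tumor 4 had ratios close to each other although their chains stood at 13.8 and 60.9 CPM per kb. In the other groups Ciita had 4 counts or fewer per library. The ratio was 28.4 in WT 3, 3.41 in ITF1 and 43.2 in ITM, on 1, 4 and 1 counts of Ciita. It could not be formed in WT 1, WT 2 and Rel, which had no count of Ciita. These counts are too few to place those groups beside Tumor or Lyso.

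**Figure D3:**
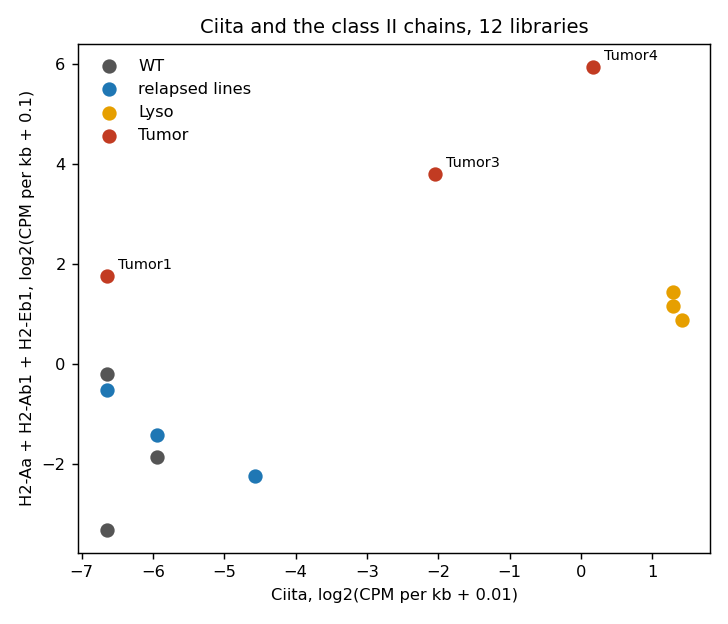
Summed level of H2-Aa, H2-Ab1 and H2-Eb1 against the level of Ciita in each of the 12 libraries, both as log2 of CPM per kilobase of exon with 0.1 and 0.01 added. The Lyso libraries lie far to the right with chains of 1.72 to 2.60 CPM per kb, and Tumor 3 and Tumor 4 lie above them with less Ciita.

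The relapsed lines, grown in culture, showed no called change in the 7 genes against WT (0 of 7 by edgeR and by DESeq2), where 0.0402% of all genes were called in either direction. At an unadjusted p under 0.05 there was 1, H2-DMb1, with a log2 fold change of 1.98 ± 0.69 (adjusted p = 0.331). Of the lines, Rel had the most H2-DMb1, H2-Ab1 and Cd74 and ITF1 the most Ciita and H2-DMa. Tumor against the relapsed lines gave 6 of 7 genes higher, where 8.36% of all genes were. The values were 7.31 for H2-Aa (adjusted p = 0.000461), 6.53 for H2-Eb1 (adjusted p = 0.000898), 6.21 for Cd74 (adjusted p = 0.000264) and 5.54 for H2-Ab1 (adjusted p = 0.000453). Ciita was higher by 5.14 (adjusted p = 0.00321) and H2-DMa by 3.19 (adjusted p = 0.00588), which without Tumor 4 was at 1.84 and not called (adjusted p = 0.0588). H2-DMb1 did not differ beyond the spread, with 0.46 (adjusted p = 0.631) and a sign that turned without Tumor 4.

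The Tumor libraries themselves differed in these genes. All 7 genes were lowest in Tumor 1 and highest in Tumor 4, with Tumor 3 between, an order that 21.16% of 12534 genes with at least 30 counts over the Tumor libraries also had. From Tumor 1 to Tumor 4 the level differed 12.6-fold for Cd74 (95% exact counting interval 9.09 to 17.8), 17.4-fold for H2-Aa (10.01 to 33.01) and 12.1-fold for H2-Ab1 (6.95 to 23.2). It differed 43.0-fold for H2-Eb1 (14.5 to 210.3, on 3 counts in Tumor 1), 10.5-fold for H2-DMa (4.63 to 29.4) and 8.86-fold for H2-DMb1 (5.03 to 17.0). Ciita, with 45 counts in Tumor 4 and 0 in Tumor 1, had a lower limit of 8.48 for the same ratio (95% exact counting interval). Among those 12534 genes the median ratio was 1.005, and 31 genes, or 0.247%, were over 8-fold higher in Tumor 4 than in Tumor 1. For these ratios a Tumor 1 level under its floor of 0.975 CPM was set to that floor, which put Ciita at 10.9-fold. All 7 class II genes were among these 31. So were genes outside class II, among them Gm12250 (26.8-fold), Kcnj13 (21.96), Tgtp1 (20.4), Zfp786 (19.7), Tgtp2 (17.4), Gbp4 (15.8), Psmb9 (12.1), Smpd3 (11.15), Igtp (10.5) and Irf8 (9.12). The spread was therefore not particular to the class II genes. The limit of 8 was set with these values in view, and with 1 library on each side the counts carry no replicate check.

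Upstream of Ciita, Irf1 stood at 35.4, 64.6 and 173.2 CPM in Tumor 1, 3 and 4. It was in the same order as the class II genes, with a smaller ratio of 4.89. Genes of other cell types differed in several ways. C1qa was 4.55, 5.44 and 5.41 CPM in these libraries and C1qb 4.23, 7.65 and 7.77 CPM. Ptprc, which marks leukocytes, was 1.95, 2.21 and 5.89 CPM and so also highest in Tumor 4. Itgam was 0, 1.01 and 1.88 CPM and Aif1 0, 0.201 and 1.41 CPM, with Tumor 4 highest, while Mrc1 was lowest in Tumor 4, at 6.50, 8.25 and 4.47 CPM. The 14 macrophage genes summed to 63.7, 77.9 and 91.3 CPM, and 8 of 10 tested were called in Tumor against WT. The 8 dendritic cell genes summed to 6.18, 6.24 and 9.42 CPM, with 0 of 3 tested called by edgeR and 0 at an unadjusted p under 0.05. The B-cell sum was 1.63, 0.604 and 4.94 CPM, with 1 of 3 tested called (Cd79a), and the T-cell sum 3.90, 3.22 and 8.71 CPM, with 0 of 2 called by edgeR, 1 (Cd8a) at an unadjusted p under 0.05, and Cd3d and Cd3e at 0. The fibroblast sum ran the other way, at 10400, 8525 and 7414 CPM, with 8 of 8 genes called. The 6 endothelial genes summed to 32.8, 35.8 and 28.0 CPM, with 4 of 5 called, and the melanocyte sum was 19650, 21140 and 21570 CPM. Which of these cells carried the class II RNA was not tested.

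**Figure D4:**
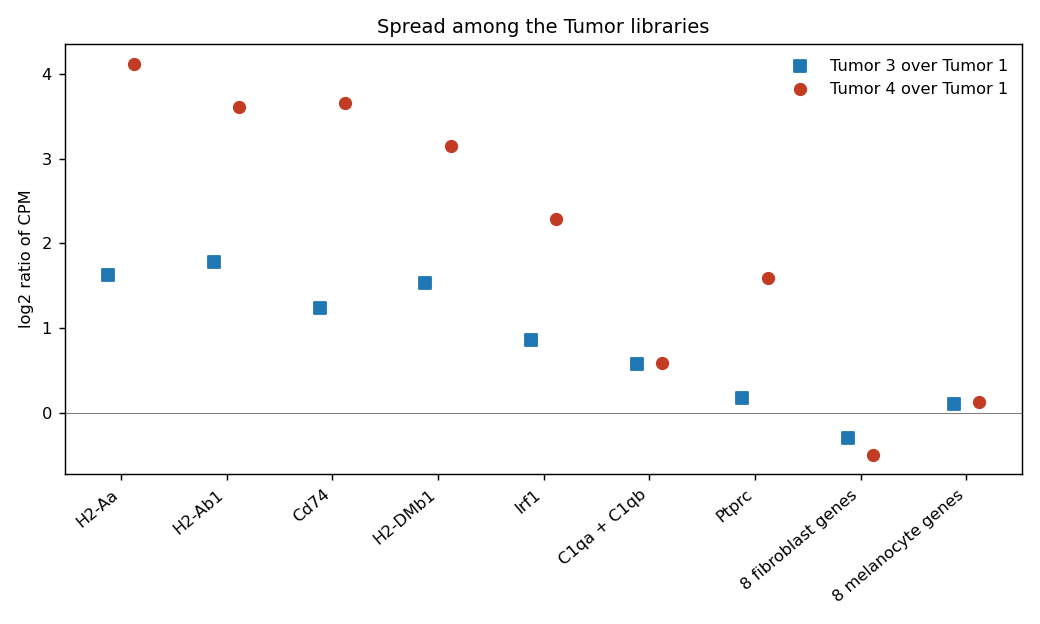
Ratio of the level in Tumor 3 (squares) and Tumor 4 (circles) to that in Tumor 1, as log2 of CPM, for 4 class II genes, Irf1 and genes or sums of genes of other cell types. The class II genes in Tumor 4 lie 8.86-fold to 17.4-fold above Tumor 1, and the fibroblast and melanocyte sums lie near or below 0.

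Upstream of Ciita, 3 of 7 tested genes of the interferon gamma pathway (Irf1, Irf2 and Socs1) were lower in Tumor than in Lyso, and 0 were higher by edgeR, although Ifngr1 was at 0.87 (adjusted p = 0.00177) and so under the fold limit. Irf1, a transcription factor that acts on the Ciita gene, was 657.8, 745.8 and 758.4 CPM in Lyso and 4.53, 8.02 and 17.9 CPM in WT. It rose in Lyso against WT by 5.89 ± 0.57 (adjusted p = 0.000193) and in Tumor by 2.91 ± 0.52 (adjusted p = 0.00198), and was lower in Tumor than in Lyso at -2.98 (adjusted p = 0.000670). Of the 7 tested among 8 listed, 3 rose in Lyso against WT (Irf1, Irf2 and Socs1) and 1 in Tumor (Irf1). Socs1, which dampens JAK signaling, rose by 4.56 in Lyso (adjusted p = 0.000212) and was at 1.36 in Tumor (adjusted p = 0.0737). The receptor chain Ifngr1 and the kinase Jak2 were at 0.58 (adjusted p = 0.0313) and 0.45 (adjusted p = 0.0412) in Tumor, under the fold limit. Ifng itself had 7 counts in all over Lyso and 1 over Tumor, and none in WT or the relapsed lines.

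The genes of the proteins that Ciita docks onto showed no called change. Of the 7 genes Rfx5, Rfxap, Rfxank, Nfya, Nfyb, Nfyc and Creb1, all tested, 0 were called by edgeR in any of the 6 comparisons, and 6 of the 42 values had an unadjusted p under 0.05. Their sum was 280.5 to 325.5 CPM in WT and 282.1 to 291.1 CPM in Tumor. Rfxank, with the smallest p in Tumor against WT, had a log2 fold change of -0.47 ± 0.11 (adjusted p = 0.0110). It was at -0.69 in Tumor against Lyso (adjusted p = 0.000636) and -0.70 against the relapsed lines (adjusted p = 0.000583), each under the fold limit. Rfx5 was at 0.61 in Tumor against WT (adjusted p = 0.0891). All 7 were above the detection limit in every library.

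Of the endosomal enzymes that cut the invariant chain and antigens, Ctss was the one called in Tumor against WT, 1 of 6. Ctss, cathepsin S, trims Cd74 in professional antigen-presenting cells. It was 3.58, 7.85 and 15.3 CPM in Tumor 1, 3 and 4, 0.754, 0.932 and 0.648 CPM in Lyso, and had no count in WT. Its change in Tumor against WT was 9.40 (adjusted p = 0.000455), and in Lyso against WT, at 5.88, it did not pass (adjusted p = 0.0721). Since all WT libraries are at 0, these fitted sizes depend on the prior count. Lgmn, at 0.76 (adjusted p = 0.00382), and Ctsd, at -0.86 (adjusted p = 0.00973), stayed under the fold limit, and Ctsb was at -0.49 (adjusted p = 0.338). Against Lyso, Ctss was higher and Ctsd lower in Tumor.

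The remaining class II genes were hardly expressed. Of the 5 in the table (H2-DMb2, H2-Oa, H2-Ob, H2-Eb2 and the pseudogene H2-Ea-ps), 1, H2-DMb2, had enough counts for a test, and it was called by edgeR in none of the 6 comparisons, nor past an unadjusted p of 0.05, with a log2 fold change of 0.89 in Tumor against WT (adjusted p = 0.780). H2-Ea-ps had no count in any of the 12 libraries. H2-Oa and H2-Ob, whose product restrains H2-DM in B cells, had 6 counts or fewer in each library. Of 3 genes that act on the turnover of surface class II, 1, March8, was tested, and its change in Tumor against WT was -0.15 (adjusted p = 0.585).

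Among themselves, the chains and Cd74 moved closely together over the 12 libraries, as a description of points that share depth and group. Pearson r between log2 CPM of Cd74 and of H2-Aa was 0.967, and between H2-Aa and H2-Eb1 0.966. H2-DMa had r of 0.827 to 0.878 with these 4 genes. Ciita had 0.531 to 0.616 with them, and H2-DMb1 0.434 to 0.622. The lowest value of all, 0.133, was between Ciita and H2-DMb1. By a naming rule, the genes outside the lists whose log2 CPM was most like the mean of the 7 over the 12 libraries included Oas3 (r = 0.944), Gm20496 (0.936), Psmb8 (0.935) and Mpeg1 (0.929). Psmb8, the immunoproteasome subunit, was 14.0, 37.8 and 128.5 CPM in Tumor and 16.1, 17.5 and 16.6 CPM in Lyso, and at most 3.21 CPM in the other libraries. Gm20496 overlaps Psmb8 on the other strand, so that reads of the 2 may not be told apart. Mpeg1, which encodes a pore-forming protein of macrophages, was 2.60, 5.64 and 11.5 CPM in Tumor, 1.98, 1.77 and 1.86 CPM in Lyso and 0 in the other 6 libraries.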

How the data were processed

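Per the study's methods, the authors trimmed reads with fastp 0.19.6, aligned them to GRCm38 with STAR 2.7.1a and deposited raw counts per gene, not normalized. The strand setting and annotation release are not given in the sources used here. The 4 rows for reads on no gene were left out. Groups and replicate numbers come from the labels, which give 48 hours with granules where the study's methods give 4 hours. The 7 genes and all gene lists were chosen with earlier results of these data known. Counts were tested with edgeR 4.0.16 in R 4.3.3 (TMM, filterByExpr by group, glmQLFit and glmQLFTest, all 12 libraries, 6 comparisons), after a test on simulated counts. DESeq2 1.42.0 was an alternative, as were other scalings, filters, thresholds, control libraries, the replicate number as a block and leaving out each library. Each SE was taken as the log2 fold change divided by the root of its F statistic. CPM use TMM-scaled library sizes, and CPM per kb divide by exonic length in GENCODE. Wider lists are named by the smallest p in Tumor against WT, at most 4 genes each, and some genes of the lists are not reported here or counted in them. Likeness used log2 CPM with a prior count of 2. Intervals at 95% are exact and cover counting error only. Python 3.11.15 was used for the rest.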

Additional observations from a re-analysis of the deposited data

How the results depend on the processing

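The number of the 7 genes called was 7 in Tumor against WT, and 3 with WT 1 and WT 2 as the controls, 3 of the 4 genes that passed the filter when these groups were fitted alone, and 3 to 7 when a library was left out (3 without WT 3). In Lyso against WT it was 1, and 5 without a filter on low counts and 4 with these groups fitted alone. In Lyso against the relapsed lines it was 1, and 2 with DESeq2, 7 without the filter and 5 with these groups fitted alone. In the relapsed lines against WT it was 0, and 1 without the filter. Leaving out a library gave 4 to 7 calls in Tumor against Lyso and 5 to 6 in Tumor against the relapsed lines, against 6 in each. Causes were not tested. With the replicate number as a block, 3 genes of 6 tested were called in Tumor against WT and 3 of 6 in Lyso against WT, but same-numbered libraries did not deviate together (r from -0.008 to 0.065), so the number is no evidence of a pairing. Tumor 4 was alone in its block, so that this fit took no group difference from it. Cd74 in Tumor against Lyso was at 1.91 with the block and 1.72 without Tumor 4, against 3.37 in the main fit.

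Signs turned in the relapsed lines against WT, where nothing was called. H2-Aa was at -1.01 with DESeq2, and H2-Eb1 at 0.55 with WT 3 as the only control. When a library was left out the values ran from -0.42 to 3.13 for Ciita, -1.13 to 0.06 for Cd74, -1.93 to 3.93 for H2-Aa, -0.16 to 5.12 for H2-Ab1, -1.37 to 0.69 for H2-Eb1 and -0.80 to 1.04 for H2-DMa. For H2-DMb1 in Tumor against the relapsed lines they ran from -0.63 to 1.17. Of 618 alternative values for single genes, 554 kept their direction and side of the threshold, 29 fell below it, 24 passed it and 11 turned. Scaling by library size alone moved the median of all genes in Lyso against WT to -0.1016 on the log2 scale from -0.0048, and the level of H2-DMb1 in Lyso to 4.21 CPM from 4.36. Depth limits the chains in WT 1, whose floor of 1.70 CPM is close to the Lyso means of 1.57 to 2.20 CPM.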

Other observations

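The genes most like Ciita alone, listed outside the naming rule, were Gm12250 (Pearson r = 0.982 over the 12 libraries), Gm12185 (0.979), Cd52 (0.975), Olfr56 (0.975) and Gm4841 (0.974). Gm12250, an immunity-related GTPase, was 82.6, 97.2 and 94.1 CPM in Lyso, 0.650, 5.44 and 26.1 CPM in Tumor 1, 3 and 4 and at most 0.422 CPM elsewhere. Like Ciita it was high and even in Lyso and uneven in Tumor. Cd52, a surface protein of lymphocytes, was 1.79, 1.77 and 1.30 CPM in Lyso and 0, 0.604 and 1.88 CPM in Tumor 1, 3 and 4.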
